A study of Mus musculus with 8 samples.

Results

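The cells described here are tumour endothelial cells (ECs) that carried transcripts of lymph node sinus lining, 70 of the 8204 deposited cells. They were chosen by measured values: a cell had at least 1 UMI (a counted transcript molecule) of at least 3 of Ccl20, Cyp1b1, C3, Ltb, Il33 and Ltbp2 and of at least 1 of Prox1, Lyve1, Flt4 and Pdpn, and did not have Lyve1, Ccl21a and Mmrn1 together. They are called sinus-like cells below. The study isolated live CD31+ CD45- ECs by FACS from breast tumours of adult female mice and made 8 libraries with 10x 3′ v3 chemistry, 2 in each of 4 groups. The spontaneous tumours arose in mice with the MMTV-PyMT transgene, a mammary promoter that drives an oncogene in mammary epithelium, and the implanted tumours grew from PyMT tumour cells placed with Matrigel in the mammary fat pad of mice without the transgene. Each tumour received PBS or the STING agonist cGAMP by intratumoural (i.t.) injection and was sampled at 3 h. The labels name the strain as c57bl/6 for all groups whereas the methods name FVB, so the strain is not settled. The methods give 2 mice for each group, but the labels do not tie a library to a mouse, so p-values measure the spread between libraries, which may be technical in part.

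Lymph that enters a lymph node runs through sinuses lined by lymphatic endothelium. The ceiling of the subcapsular sinus faces the capsule, its floor faces the lymphocytes, and medullary sinuses carry lymph out. Floor cells are known for Ccl20, which draws CCR6-bearing cells, Madcam1, an adhesion ligand of the integrin α4β7, and Csf1, a macrophage growth factor. Medullary cells are known for the scavenger receptor Marco, and ceiling cells for Ackr4, which takes up chemokines. Capillary lymphatics outside the node carry Lyve1, Ccl21a and Mmrn1.

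The sinus-like cells were few and unevenly spread over the libraries. In spontaneous tumours they were 12 of 1040 cells (1.15%, 95% Wilson interval 0.661 to 2.01) and 8 of 674 (1.19%, 0.603 to 2.32) after PBS, and 7 of 741 (0.945%) and 4 of 781 (0.512%) after cGAMP. In implanted tumours they were 0 of 1099 cells, which allows a share of up to 0.273% by a limit of 3 counts (Wilson upper bound 0.348%), and 1 of 1190 (0.084%) after PBS, against 16 of 2025 (0.79%) and 22 of 654 (3.36%, 2.23 to 5.04) after cGAMP. Intervals and limits cover counting error only, and no test was made because the rule itself counts the cells. The rule finds more cells where cells are read more deeply: library implanted cGAMP 1 had a median of 2014 UMIs per cell, against 8803.5 to 13148 in the other 7. After each cell was drawn to 2000 UMIs, which left out 1009 of the cells of that library and 56 to 166 of each other one, the counts were 7, 5, 4 and 2 in spontaneous tumours and 0, 0, 10 (0.984%) and 11 (1.89%) in implanted tumours. At either depth the implanted PBS libraries had fewer of these cells than any other library. Cells with at least 4 of 7 high endothelial genes numbered 7, 5, 1 and 1 in the spontaneous and 8, 18, 6 and 7 in the implanted libraries, and cells with at least 3 of 8 lymphocyte genes numbered 3, 1, 4 and 5, then 3, 6, 18 and 8. The most high endothelial cells were in implanted PBS 2, with 1 sinus-like cell, whereas the most lymphocyte-gene cells were in implanted cGAMP 1 and 2, with 16 and 22. The part of lymph node tissue in these counts was not tested. Libraries shared 7 cell barcodes in all, at most 3 between any 2.

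**Figure D1:**
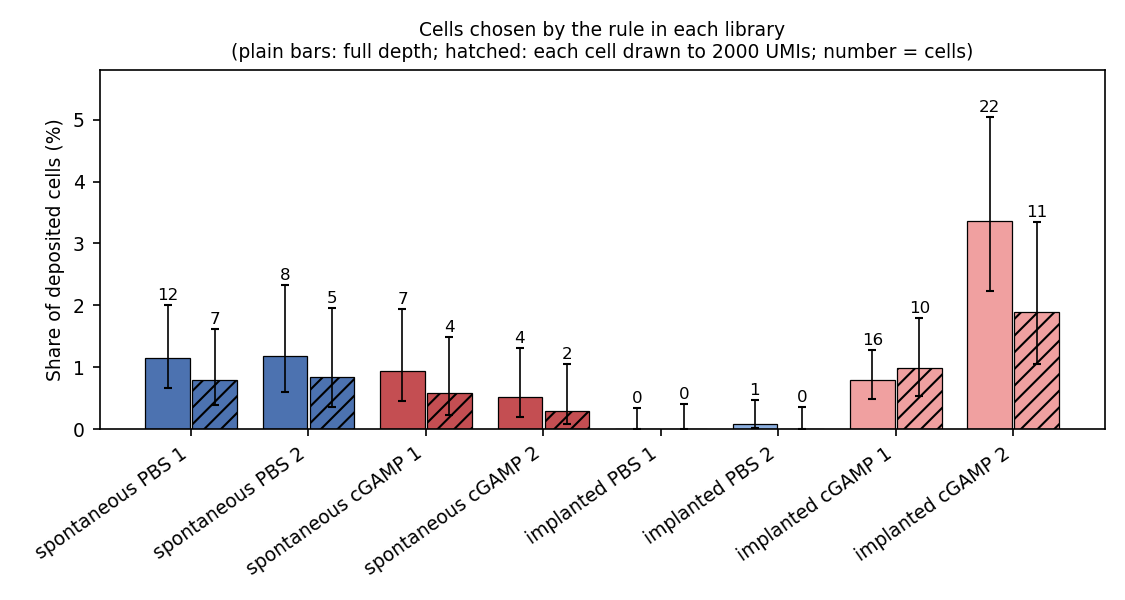
Share of deposited cells (%) chosen by the rule in each of the 8 libraries, with 95% Wilson intervals and the number of cells above each bar, at full depth (plain) and after each cell was drawn to 2000 UMIs (hatched). The implanted PBS libraries held 0 and 1 such cells, and implanted cGAMP 2 held the largest share, 3.36%.

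The genes of the rule describe the cells and were not tested. C3, the central complement component, was found in 67 of the 70 cells, Cyp1b1, a cytochrome P450, in 64, Ltbp2, a matrix protein of the latent TGF-β binding family, in 61, the nuclear alarmin Il33 in 55, the cytokine subunit Ltb in 54 and the chemokine Ccl20 in 30. Of the lymphatic genes, the transcription factor Prox1 was found in 53, the VEGF-C receptor Flt4 in 51, Lyve1 in 48 and Pdpn in 46. Flt4 was also found in 28.9% to 53.6% of other ECs, depending on the library, against 3.19% to 10.3% for Prox1. Exactly 1 of the 4 lymphatic genes was present in 9 cells, in some of them Flt4 alone. All 6 genes were present in 21 cells, 5 in 23, 4 in 12 and exactly 3 in 14. Just outside the rule lay 39 cells with exactly 2 of the 6 genes, of which 5 had Madcam1 and 4 had Glycam1, whereas of the 14 cells just inside it 4 had Madcam1 and 5 had Glycam1. When the cells were chosen without the gene itself, Cyp1b1 was found in 55 of 61 cells (90.2%), C3 in 56 of 59 (94.9%), Ltb in 49 of 65 (75.4%), Il33 in 48 of 63 (76.2%), Ltbp2 in 54 of 63 (85.7%), Ccl20 in 27 of 67 (40.3%) and Prox1 in 51 of 68 (75.0%).

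Nearly all Ccl20 of the 8 libraries was in these cells, which held 1769 of its 1797 UMIs (98.4%). For comparison, they held 86.5% of the UMIs of Cyp1b1, 57.0% of Il33, 49.5% of Ltb, 45.4% of C3 and 44.9% of Ltbp2. The mean Ccl20 level was 438 and 2109.7 CPM (UMIs scaled to the same total in each cell, averaged over cells) in spontaneous PBS 1 and 2, 328 in spontaneous cGAMP 1, and 2569 and 2545 in implanted cGAMP 1 and 2, and it was at most 2.80 CPM in other ECs of any library. These means rest on few cells, since 5 cells with over 100 UMIs each held 1202 of the Ccl20 UMIs (67.9%).

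The 250 bases before the start of Ccl20 and of Madcam1 are shown because these genes mark the sinus floor and both windows hold an NF-κB type motif, GGGNNNTTCC on either strand. Motif matches are in capitals, bases run 5′ to 3′ on the strand of the gene, and the sequences are those of RefSeq on GRCm38.p6. The Ccl20 gene lies at chr1:83116766-83119167 on the plus strand and Madcam1 at chr10:79664559-79668537 on the plus strand, so both windows are upstream of the annotated transcripts.
Ccl20, chr1:83116516-83116765: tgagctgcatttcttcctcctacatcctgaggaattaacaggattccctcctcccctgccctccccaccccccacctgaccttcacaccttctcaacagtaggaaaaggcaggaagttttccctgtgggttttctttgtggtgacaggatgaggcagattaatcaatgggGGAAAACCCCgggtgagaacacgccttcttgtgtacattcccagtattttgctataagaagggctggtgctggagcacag
Madcam1, chr10:79664309-79664558: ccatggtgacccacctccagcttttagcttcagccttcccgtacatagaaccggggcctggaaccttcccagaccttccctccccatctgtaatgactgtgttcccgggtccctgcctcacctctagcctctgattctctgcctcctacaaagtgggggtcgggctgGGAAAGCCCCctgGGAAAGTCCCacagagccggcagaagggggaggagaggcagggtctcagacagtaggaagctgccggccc
The match begins 80 bases before the start of Ccl20, and the 2 matches of Madcam1 begin 83 and 70 bases before its start. Of 30 genes considered (the 12 of the rule, 15 named below as highest against other ECs, and Csf1, Coch and Itga2b), 25 had a promoter that was searched, and 5 of these genes (20.0%) held the motif: Ccl20, Ltb, Cxcl10, Madcam1 and Csf1. Among all 32851 promoters of that length 1527 (4.65%) held it, which counts single promoters, whereas some of the 25 genes had several. A match describes letters in a window and shows no binding.

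Genes outside the rule placed the cells in the endothelium, with transcripts of the sinus floor. Genes of medullary sinuses were found in part, and their sum did not set the cells apart from other lymphatic cells. Pecam1 or Cdh5, the junction proteins that define ECs, was found in 67 of 70 cells, 66 passed the gate of at least 3 of 6 endothelial genes used for other ECs, and Ptprc, which encodes CD45, was found in none. The summed level of 12 pan-endothelial genes was nevertheless lower than in other ECs, at 2933 to 4793 CPM against 7326 to 8474, over the 5 libraries with at least 5 sinus-like cells. The floor genes that the rule did not use, Madcam1, Csf1, Itga2b and Coch, were found in 38, 55, 44 and 10 cells, and together reached 623 to 1385 CPM against 32.8 to 71.1 in other ECs. Of genes of other sinus regions, Ackr4 was found in 3 cells, Ptx3 in 2, Marco in 7 and Stab2 in 12, whereas Stab1, which tumour ECs share, was found in 53. The 5 medullary genes, Stab1 included, summed to 270 to 1229 CPM against 109 to 202 in other ECs. In cells with Lyve1, Ccl21a and Mmrn1 they summed to 321 to 1112 CPM, whereas the floor genes there reached 0 to 237. In sinus-like cells of spontaneous PBS 1 and 2 the medullary sums were 895 and 1229 CPM, near the floor sums of 904 and 1385. Of 7 high endothelial genes, Glycam1 was found in 47 cells, Enpp2 in 54, Madcam1 in 38 and Chst2 in 37, and the defining sulphotransferase Chst4 and fucosyltransferase Fut7 in none.

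**Figure D2:**
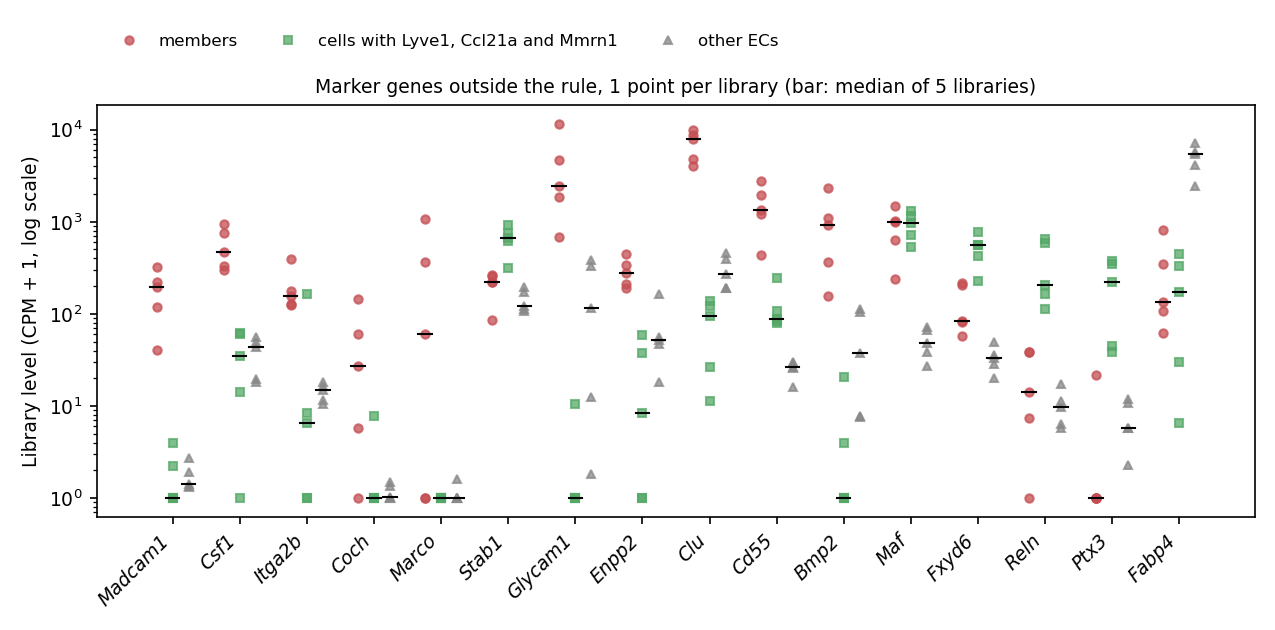
Library level (CPM + 1, log scale) of 16 marker genes outside the rule in sinus-like cells (members, circles), cells with Lyve1, Ccl21a and Mmrn1 (squares) and other ECs (triangles), 1 point for each of 5 libraries, with medians as bars. Madcam1 lay between 39.6 and 324 CPM in sinus-like cells and at 1.72 CPM or less in other ECs, while Reln and Ptx3 were highest in the cells with Lyve1, Ccl21a and Mmrn1.

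Transcripts of other cell types were present in part. Lymphocyte genes summed to 0 to 52.1 CPM and mesothelial genes to 0. Epithelial tumour genes summed to 1611, 316, 329, 3109 and 119 CPM in spontaneous PBS 1, spontaneous PBS 2, spontaneous cGAMP 1, implanted cGAMP 1 and implanted cGAMP 2, with all 8 genes detected and the defining gene Epcam in 15 cells. In other ECs of these libraries the same genes summed to 694, 597, 632, 1079 and 176 CPM. Mural genes were found in full (7 of 7, 146 to 598 CPM, Rgs5 in 23 cells), as were fibroblast genes (8 of 8, 0 to 332 CPM, Dcn in 11 cells). Other ECs of the same libraries had 103 to 782 CPM of mural and 30.2 to 193 CPM of fibroblast genes. In spontaneous cGAMP 2, outside these libraries, fibroblast genes summed to 931.5 CPM and 4 reticular stromal genes to 1216 (other ECs 165 and 46.2). A cell of 5571 UMIs there had 33 UMIs of Ccl21a, 7 of Col1a1 and neither Pecam1 nor Cdh5. In implanted cGAMP 2 the reticular stromal genes summed to 236 CPM against 7.58 in other ECs. The cells had a median of 12330.5 UMIs (797 to 61073) and 3560.5 genes. Of these, 6 had over 30000 UMIs, and among those 4 had Epcam, 3 Dcn and 3 Rgs5. The only such cell of an implanted PBS library had neither Ccl20, Madcam1 nor Glycam1, and its capillary genes summed to 14774 CPM, with 116 UMIs of Fabp4.

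The cells were not uniform. Of the 30 with Ccl20, 25 also had Madcam1, 27 had Glycam1 and 4 had Mmrn1. Of the 40 without Ccl20, 13 had Madcam1, 20 had Glycam1 and 17 had Mmrn1, at a similar median depth (12177.5 against 13317.5 UMIs). A further split was by Marco, whose 7 cells lay in 3 libraries (3 in spontaneous PBS 1, 2 in spontaneous PBS 2 and 2 in implanted cGAMP 2) and held 169 of the 171 Marco UMIs, 110 of them in 1 cell. All 7 had Prox1 and Lyve1, and 5 had Madcam1. In all, 19 cells, 2 of the Marco cells among them, had neither Madcam1 nor Glycam1, and they carried Clu in 18 cells, Cpe in 17, Prox1 in 13 and Bmp2 in 4. As a measure of background from free RNA, Madcam1 was found in 54.3% of sinus-like cells against 0.687% of other ECs and 0.141% of cells outside the endothelial gate (median depths 12330.5, 10552.5 and 1136 UMIs), and at 2000 UMIs per cell in 24.2% against 0.145% and 0%. Glycam1 was found in 67.1% against 4.90% and 1.41%, and at 2000 UMIs in 62.1% against 1.91% and 2.14%. The sinus-like cells held 63.2% of all Madcam1 UMIs but only 4.41% of all Glycam1 UMIs, since implanted PBS 2, with 1 such cell, had 38248 Glycam1 UMIs in 149 cells.

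The next comparison asked which genes outside the rule set sinus-like cells apart from other ECs of the same library. It used library levels (mean CPM over cells) in the 5 libraries with at least 5 sinus-like cells, and differences are on the log2(CPM + 10) scale with their standard error over the 5 libraries. Because the cells were picked by genes measured in the same cells, genes that go along with those genes differ by construction, so the comparison describes the cells and nothing is read from its counts. In limma 690 of 4740 genes (14.6%) were higher and 749 (15.8%) lower at an adjusted p under 0.05, 1439 (30.4%) in all. Levels below are in the order spontaneous PBS 1, spontaneous PBS 2, spontaneous cGAMP 1, implanted cGAMP 1 and implanted cGAMP 2.

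Cd55, which protects cells from complement, was the gene furthest above other ECs. Its level was 1950.0, 2777, 1342, 438 and 1204 CPM against 14.9 to 28.9 in other ECs, a difference of 5.28 ± 0.32. Every library of sinus-like cells lay far above every library of other ECs. Clu, a chaperone found in blood plasma that also restrains the complement attack complex, was the most abundant of the named genes. Clu reached 4819, 7912, 4018, 8651 and 9827 CPM against 189 to 454 (4.52 ± 0.19). Cpe, a peptide-processing carboxypeptidase, had 849, 1037, 660.1, 779.8 and 1375 CPM against 12.8 to 30.0 (5.02 ± 0.22). Both spanned a far smaller range among the libraries than their distance from other ECs.

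Glycam1, a mucin-like ligand of L-selectin best known from high endothelial venules, was at 4636, 11476, 2422, 682 and 1872 CPM against 388, 328, 0.821, 115 and 11.6 in other ECs (5.07 ± 0.56). Its highest levels were in the PBS libraries. Madcam1 was at 220.5, 324, 39.6, 117 and 195 CPM against 0.321 to 1.72 (3.88 ± 0.38). The ligand Bmp2 was at 926, 2317, 1100.4, 156 and 365 CPM, with other ECs at 6.75 and 6.57 in PBS libraries and at 36.6, 113 and 103 in cGAMP libraries (3.94 ± 0.73). The chemokine Cxcl10, an interferon-induced attractant of T cells, was at 1074 and 509 CPM in PBS libraries, where other ECs had 7.05 and 4.78 (3.88 ± 0.42). These PBS levels rest on few cells. In spontaneous PBS 1, cells of 6649, 8869 and 20203 UMIs held 47, 32 and 31 Cxcl10 UMIs, and no other had more than 7. The latter 2 cells had Lyve1, Mmrn1 and Reln, with 0 and 2 Clu UMIs. In spontaneous PBS 2, cells of 13388 and 12989 UMIs held 34 and 12, and no other had more than 7.

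The other genes named by the rule of size were Il4i1, an amino acid oxidase (4.57 ± 0.36), the desmosomal cadherin Dsg2 (4.49 ± 0.25), Creg2 (4.14 ± 0.37), the homeobox factor Meis2 (4.11 ± 0.29), C1ql3 (3.89 ± 0.38), Glipr2 (3.86 ± 0.22), Dock10 (3.78 ± 0.27) and Rgs4, a regulator of G-protein signalling (3.74 ± 0.49). Dsg2, for example, was at 194 to 519 CPM against 3.09 to 16.5, and Creg2 at 44.2 to 303 against at most 0.792.

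**Figure D3:**
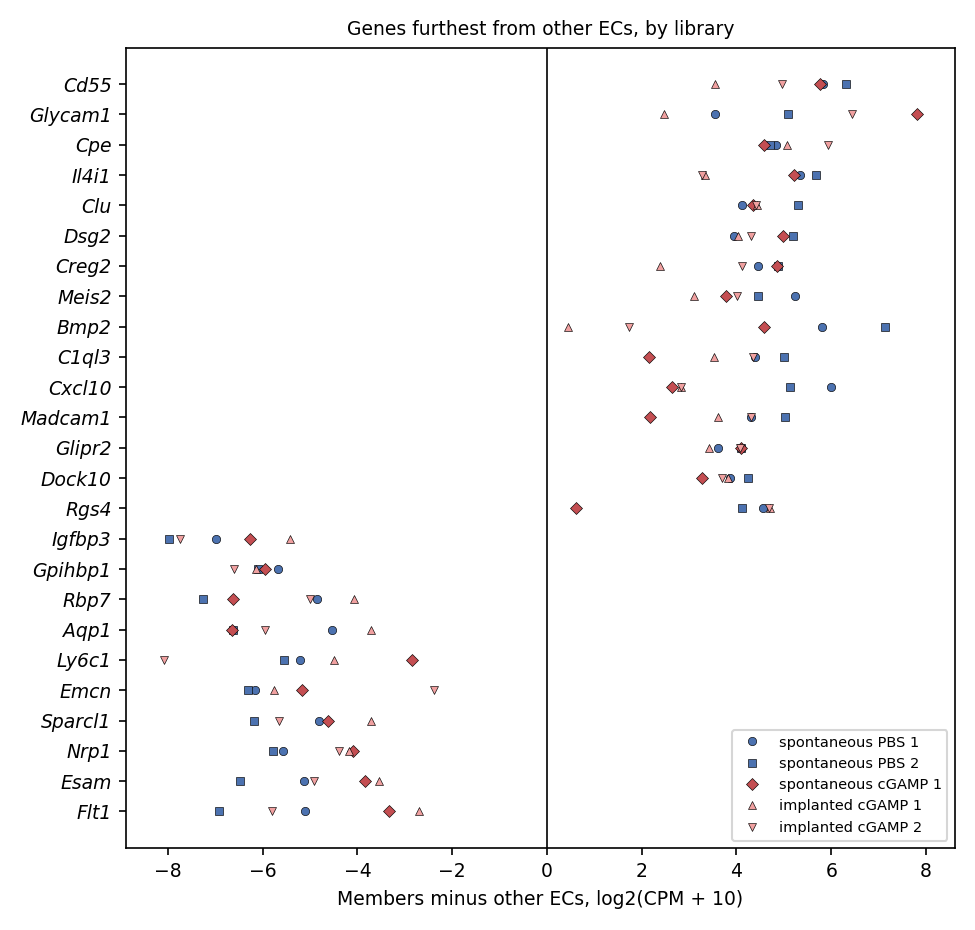
Difference between sinus-like cells (members) and other ECs on the log2(CPM + 10) scale for the 15 genes highest and the 10 lowest by the rule, 1 point per library. For each gene all 5 libraries lie on the same side of 0, from Cd55 (mean 5.28) to Igfbp3 (mean -6.88).

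Genes of capillary and vascular endothelium were the furthest below other ECs. Igfbp3, which binds insulin-like growth factors, was at 2.33, 0, 9.36, 31.4 and 0 CPM against 1477 to 2523 (-6.88 ± 0.32). Gpihbp1, which anchors lipoprotein lipase on capillaries, was at 9.40, 9.34, 9.36, 0 and 0 CPM against 698 to 1317 (-6.10 ± 0.20). The water channel Aqp1 (-5.50 ± 0.37), the retinoid-binding Rbp7 (-5.56 ± 0.39), Ly6c1 (-5.23 ± 0.51), the sialomucin Emcn (-5.16 ± 0.45), Sparcl1 (-4.99 ± 0.29), the VEGF co-receptor Nrp1 (-4.80 ± 0.30), the junction protein Esam (-4.79 ± 0.34) and the VEGF receptor Flt1 (-4.77 ± 0.47) were lower in each of the 5 libraries. Fabp4, a fatty acid carrier of capillaries, was at 60.8 to 821 CPM against 2462 to 7133, and all 4 tested capillary genes were lower (median -3.80). Of 11 pan-endothelial genes 8 were lower and none higher (median -1.31, against -0.02 over all genes). Pecam1 was at 339 to 534 CPM against 942 to 1149 (-1.19 ± 0.16). Of 8 arterial genes 6 were lower and 1, Clu, was higher.

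Of the lymphatic and sinus lists outside the rule, the pan-lymphatic, floor, medullary and lymphatic valve genes were mostly higher. The 1 ceiling gene tested, Ackr3, and the 1 Ptx3 sinus gene tested, Itih5, were lower (-1.47 and -1.41). Of 4 lymphatic valve genes Cldn11 (2.96), Itga9 (1.35) and Fn1 (1.07) were higher and Gja4 (-0.97) was lower. Of 5 pan-lymphatic genes 4 were higher and 1 lower (median 2.80), among them the transcription factor Maf at 239.6 to 1464 CPM against 26.1 to 71.8 (3.72 ± 0.38), the guidance factor Sema3d (3.60 ± 0.36) and the transcription factor Tbx1 (2.80 ± 0.24). All 4 floor genes were higher (median 3.29): Csf1 was at 467, 935, 762, 327 and 301 CPM against 17.4 to 55.1 (3.57 ± 0.34), Itga2b, the platelet integrin chain, at 123 to 397 against 9.62 to 17.3 (3.01 ± 0.27), and Coch at 60.2, 0, 26.4, 4.72 and 143 against at most 0.491 (1.81 ± 0.62). Coch overlapped other ECs because spontaneous PBS 2 had none. Of 3 medullary genes Marco and Stab2 were higher and Stab1 was at 83.9 to 265 CPM against 108 to 196. Of 4 high endothelial genes 3 were higher, and Chst2 was at 69.7 to 299 CPM against 70.0 to 102.

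Genes of several inflammatory lists were also higher. The cells were picked in part by Ccl20, C3, Ltb and Il33, so the list counts here and in the next paragraph only describe the cells. Over all genes 14.6% were higher and 15.8% lower. Of 13 NF-κB targets 10 were higher and 1 lower (median 0.93), such as the adhesion molecule Vcam1 at 529.6, 834, 1541, 1196 and 1916 CPM against 37.2 to 254 (3.30 ± 0.24), the apoptosis inhibitor Birc3 at 302 to 446 against 19.7 to 42.4 (3.30 ± 0.19) and the feedback inhibitor Tnfaip3 (2.36 ± 0.22). Il6 was the 1 lower. In the lymphotoxin pathway, in which the receptor Ltbr acts through the kinase Map3k14 and the factors Relb and Nfkb2, 4 of 6 genes were higher and 1, Tnfrsf1a, was lower (median 1.59). Relb was at 287, 294, 275, 131 and 139.9 CPM against 38.7 to 54.6 (2.02 ± 0.24), Nfkb2 differed by 1.69 ± 0.24, Map3k14 by 1.49 ± 0.34 and the receptor Tnfrsf11a by 1.83 ± 0.24, while Ltbr itself was at 15.9 to 100.4 CPM against 61.1 to 94.4. Of 15 interferon response genes 5 were higher and 1, Ifit3, was lower (median 0.35).

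Complement genes were higher in 5 of 7 cases and lower in 1 (median 2.23). The classical pathway protease C2 was at 81.2, 202, 663, 511 and 696 CPM against 1.08 to 56.1 (3.50 ± 0.22), the alternative pathway factor Cfb differed by 2.23 ± 0.30, and Cd59a, which blocks the attack complex, was the lower gene (-1.70 ± 0.28). Of 10 antigen presentation genes 9 were higher (median 1.43), with the class II invariant chain Cd74 at 476, 449, 792, 760.0 and 1460.2 CPM against 8.90 to 619.8 (2.58 ± 0.49) and the checkpoint ligand Cd274 at 87.1 to 603 against 3.54 to 130.1 (2.18 ± 0.26). Of 10 genes of chemokines and their scavenging receptors 6 were higher and 2 lower, the latter Cxcl12, at 0 to 65.5 CPM against 332 to 708 (-4.55 ± 0.46), and its scavenger Ackr3. Elastic fibre genes went both ways, with 4 of 8 higher (Ltbp1, 2.53 ± 0.30, among them) and 3 lower (Fbln2, Fbln5 and Ltbp4). In the adhesion list 6 of 15 were higher and 5 lower: Jam3 was at 244 to 904 CPM against 17.8 to 70.6 (3.34 ± 0.18), whereas its relative Jam2 was at 0, 0, 7.02, 0 and 0 against 153 to 228 (-4.26 ± 0.26), and Cav1, the caveolar coat protein, was lower (-4.13 ± 0.33). Of 9 lymphatic development genes 3 were higher and 3 lower, Vegfc and Sox18 among the latter. The 1 IL-1 family gene and the 2 aryl hydrocarbon receptor genes tested did not pass.

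Against the 236 cells with Lyve1, Ccl21a and Mmrn1, the lymphatic cells that the last clause of the rule removes, 434 of 5118 genes (8.48%) were higher and 436 (8.52%) lower, 870 (17%) in all. This comparison too describes the cells, since the rule separates both sets. Glycam1 was 0, 0, 0, 9.53 and 0 CPM in those lymphatic cells (7.93 ± 0.46), Clu was 10.2 to 136 (6.62 ± 0.32) and Bmp2 was 0 to 19.5 (5.71 ± 0.52). Vcam1 (5.56 ± 0.27), the granule proteoglycan Srgn (5.35 ± 0.26), Il4i1 (5.31 ± 0.39), Cpe (5.23 ± 0.30), Cxcl10 (5.05 ± 0.33) and Dsg2 (4.88 ± 0.37) followed. Rgs4 was absent from the lymphatic cells and at least 210.4-fold higher in sinus-like cells, by a limit of 3 UMIs over the group. Marco had no UMI there either, and Madcam1 was at 0 to 2.92 CPM (3.88 ± 0.44).

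Other genes were high in the same lymphatic cells and lower in sinus-like cells. Fgl2, a fibrinogen-like protein, was at 0, 0, 2.34, 9.91 and 11.1 CPM in sinus-like cells against 1618, 1443, 1321, 635 and 972 (-6.37 ± 0.34). Adamtsl1 and Fndc1 had no UMI in sinus-like cells of the 5 libraries and were at least 68.3-fold and 47.6-fold lower. Fbln2 (-4.28 ± 0.37), Aqp1 (-4.12 ± 0.41), the guidance cue Ntn1 (-4.07 ± 0.39), Abi3bp (-4.01 ± 0.31), Fbln5 (-3.96 ± 0.47), Prelp (-3.94 ± 0.36) and Gpx3 (-3.92 ± 0.40) were lower in each library. Reln, a secreted glycoprotein of lymphatic vessels, was at 0 to 37.8 CPM against 111 to 648 (-3.53 ± 0.29), and Ptx3 differed by -3.60 ± 0.46. Of 7 pan-lymphatic genes 4 were lower and none higher (median -1.59, against -0.03 over all genes), while Maf was at 239.6 to 1464 against 525 to 1315. Both tested ceiling genes were lower. Of 11 elastic fibre and latent TGF-beta genes 4 were lower and 1, Eln, was higher (0.73).

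Immune lists pointed the same way as against other ECs: 9 of 12 NF-κB targets (median 1.54), 2 of 6 lymphotoxin pathway genes (Relb and Nfkb2), 7 of 10 antigen presentation genes and 5 of 15 interferon genes were higher and none lower. These counts too describe cells picked in part by immune genes, and over all genes 8.48% were higher and 8.52% lower. Of 10 chemokine genes 5 were higher and Ackr3 was lower, and 4 of 8 complement genes were higher and Serping1 was lower. Of 4 floor genes 3, and all 4 high endothelial genes, were higher. Of 4 medullary genes 1 was higher and 2 were lower (median -0.35), and of 5 lymphatic valve genes 1 was higher and 1 was lower. The mural gene Rgs5 was also higher, at 53.0 to 348 CPM against 0 to 11.1 (3.87 ± 0.47), and the part of mural RNA in this was not tested. In the 350 further cells with Prox1 and without Lyve1, compared with no test, Glycam1 was at 29.3, 0, 0, 0.483 and 76.3 CPM and Madcam1 at 0, 0, 0, 16.1 and 1.38 over the same 5 libraries, far under the sinus-like cells.

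Whether sinus-like cells responded to cGAMP was tested over libraries, with 2 PBS libraries (both spontaneous) against 3 cGAMP libraries (1 spontaneous and 2 implanted). The implanted PBS libraries held too few of the cells, so treatment and tumour model cannot be told apart in full, and the difference within spontaneous tumours alone (2 against 2 libraries, the second cGAMP library with 4 cells) is given beside it. That second library is the only one not in the main fit, and 3 of its 4 cells passed the endothelial gate. Treatment was not part of the rule, but genes of the rule themselves differed with treatment in other ECs: the share with a C3 UMI was 1.34% and 1.48% after PBS and 5.56%, 11.2% and 11.8% after cGAMP, and with a Lyve1 UMI 1.23% and 3.45%, then 4.97%, 12.4% and 11.6%. Cells that entered the set after cGAMP and changes within the same cells therefore cannot be told apart, and the tests compare the chosen cells of each library. Interferon genes and 4 chemokines were higher after cGAMP, and Marco and Glycam1 were lower. By limma 186 of 4116 genes (4.52%) rose and 55 (1.34%) fell, 241 (5.86%) in all, and the median over all genes was -0.08. Within spontaneous tumours the count was 22 (20 rose and 2 fell, 19 of them among the 241). After each cell was drawn to 2000 UMIs, which left 2 spontaneous PBS and 2 implanted cGAMP libraries, 0 genes passed in limma and 754 had an unadjusted p under 0.05.

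Ccl5, a chemokine for T cells and monocytes, had no UMI in the sinus-like cells of either PBS library and was at 3279.6, 13844 and 7183 CPM in the 3 cGAMP libraries. The groups were fully apart, at least 759-fold by a limit of 3 UMIs over the PBS group (adjusted p = 3.74e-08 in limma), and within spontaneous tumours the log2 difference was 7.93. The spontaneous levels rest on few cells. In spontaneous cGAMP 1, cells of 28252 and 61073 UMIs held 310 and 701 Ccl5 UMIs, and no other had more than 3. Neither of those cells had Ccl20, Prox1 or Madcam1. In spontaneous cGAMP 2, a cell of 52997 UMIs held 303, and no other had more than 4. The ubiquitin-like modifier Isg15 rose from 17.9 and 37.1 to 2557, 3645 and 3814 CPM (6.51 ± 0.31, limma adjusted p = 3.74e-08; 5.62 within spontaneous tumours). The antiviral enzyme Rsad2 rose from 0 and 0 to 1216, 1765 and 744 CPM, at least 116-fold. Of 15 interferon genes 14 rose (median 4.15), including Ifit2 (5.66 ± 0.51) and Irf7, a master regulator of interferon genes (5.64 ± 0.41). The exception was the RNA sensor Ddx58, at 88.2 and 156 against 197, 204 and 248 CPM (0.82 ± 0.36, limma adjusted p = 0.225).

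**Figure D4:**
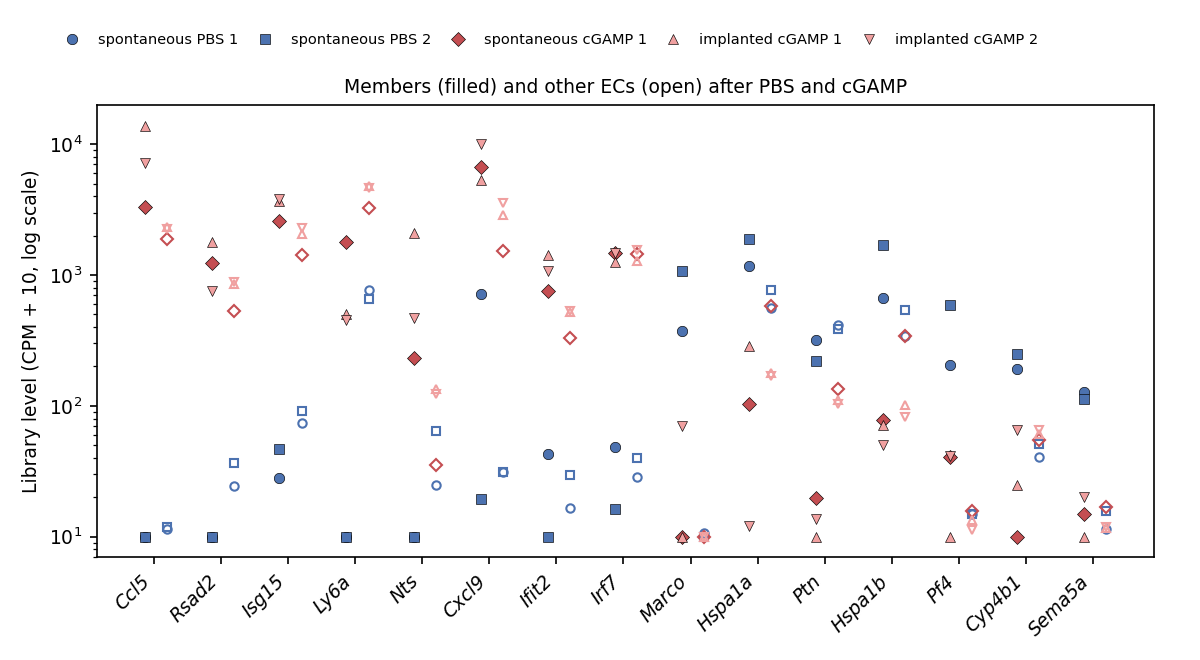
Library level (CPM + 10, log scale) in sinus-like cells (members, filled) and other ECs (open) for the 8 genes that rose most and 7 of those that fell most after cGAMP in sinus-like cells, coloured by group. Ccl5 lies at 0 in the PBS libraries and at 3279.6 CPM or more in the cGAMP libraries of sinus-like cells.

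Ly6a and the neuropeptide precursor Nts also had no UMI after PBS. Ly6a was at 1772, 489 and 441 CPM after cGAMP (at least 84.3-fold), while Nts, at 222, 2093 and 459 CPM (at least 86.6-fold), came from 19 cells. These were 1, 10 and 8 cells in that order of libraries, and spontaneous cGAMP 2 had none. The T cell chemokine Cxcl9 went from 707 and 9.34 to 6728, 5315 and 9961 CPM (5.91 ± 0.97, limma adjusted p = 0.00197), with the PBS libraries far apart from each other, and it did not pass within spontaneous tumours (5.16). Cxcl10 rose from 1074 and 509 to 2909, 7059 and 6368 CPM (2.76 ± 0.38), and the monocyte chemokine Ccl2 from 189 and 0 to 1753, 4059 and 853 (5.36 ± 0.91), so that 4 of 9 chemokine genes rose and none fell. Of 9 antigen presentation genes 7 rose (median 1.12), and 3 of 6 complement genes did, among them the C1 inhibitor Serping1, from 0 in both PBS libraries to 397, 131 and 317 CPM (at least 26.4-fold). Within spontaneous tumours Serping1 passed (5.65), whereas C2 (1.70), Cfb (1.85), Cxcl10 (1.997) and Ccl2 (3.49) did not. Cfb also did not pass without spontaneous PBS 1 (1.51), spontaneous PBS 2 (1.60) or implanted cGAMP 2 (1.32), nor the checkpoint ligand Cd274 without implanted cGAMP 2 (1.93).

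NF-κB and lymphotoxin genes did not follow this pattern. Of 12 NF-κB targets 2 rose, Ccl2 and Vcam1, and the list median was 0.36. Vcam1 (1.18 ± 0.29, limma adjusted p = 0.0257) did not pass without spontaneous PBS 1 (0.86), spontaneous cGAMP 1 (1.18) or implanted cGAMP 2 (1.02), and differed by 0.40 within spontaneous tumours. Of 6 lymphotoxin pathway genes 0 passed in limma in either direction (median 0.38), where 806 of all genes had an unadjusted p under 0.05, and Relb was at 287 and 294 against 275, 131 and 139.9 CPM (-0.72 ± 0.37, limma adjusted p = 0.308). None of the 4 floor genes passed, and Madcam1 was at 220.5 and 324 against 39.6, 117 and 195 CPM (-1.35 ± 0.51, limma adjusted p = 0.148). A p over the threshold at this number of libraries does not show that these genes were equal. None of 7 lymphatic development genes passed, 1 of 6 elastic fibre genes (Ltbp1) rose and 1 of 5 pan-lymphatic genes (Fxyd6) fell, which without any of 4 of the 5 libraries did not pass (-1.51 to -1.26).

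Marco fell the most, from 363 and 1068 CPM to 0, 0 and 60.1 (-5.05 ± 0.76, limma adjusted p = 0.00106; -5.99 within spontaneous tumours), and its level rests on 7 cells. Without spontaneous PBS 2 it did not pass (-4.29). Glycam1 fell from 4636 and 11476 to 2422, 682 and 1872 CPM (-2.31 ± 0.47, limma adjusted p = 0.00798), and it too did not pass without spontaneous PBS 2 (-1.66) or within spontaneous tumours (-3.34). The heat shock genes Hspa1a, from 1152 and 1859.9 to 92.8, 274 and 2.12 CPM (-4.38 ± 0.89), and Hspa1b (-4.03 ± 0.42) fell in this fit, yet in spontaneous cGAMP 2, outside it, Hspa1a was at 3664 CPM, and within spontaneous tumours the differences were -1.26 and -1.69 and did not pass. The growth factor Ptn fell from 309 and 212 to 9.90, 0 and 3.62 CPM (-4.26 ± 0.62; -4.24 within spontaneous tumours). The platelet chemokine Pf4 (-3.75 ± 0.66), the cytochrome Cyp4b1 (-3.10 ± 0.69) and the semaphorin Sema5a (-3.04 ± 0.76) fell as well, and none of these 3 passed within spontaneous tumours. Cyp4b1 did not pass without either PBS library (-3.30 and -2.90).

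Markers of other cell types moved with treatment in the sinus-like cells, and some of them moved in other ECs as well. Over the 6 tip-like genes the summed level was 64.9 and 21.8 CPM after PBS against 711, 883 and 436 after cGAMP, and both tested members rose, the vasodilator peptide Adm (4.55 ± 0.43) and the Tie2 ligand Angpt2 (3.24 ± 0.54). The 8 fibroblast genes summed to 15.7 and 0 against 217, 332 and 94.4 CPM, with Dcn at 0 and 0 against 194, 227 and 58.3, and the 7 mural genes to 146 and 183 against 376, 321 and 598, with Kcnj8 at 0 and 0 against 42.1, 268 and 239. The 9 myeloid genes summed to 11.3 and 9.62 against 106, 63.3 and 65.9 CPM, and the 8 lymphocyte genes to 0 and 0 against 14.7, 52.1 and 26.8, with 4 genes of each list detected and Ptprc and Csf1r at 0. In other ECs of the same libraries the myeloid genes went from 16.2 and 16.4 to 41.1, 258 and 63.3 CPM. The lymphocyte genes there went from 9.64 and 3.70 to 16.3, 114 and 51.1 CPM. Adm, Angpt2 and Dcn rose by 1.40, 1.37 and 1.11 in other ECs, and Kcnj8 by 0.17. The 5 capillary genes summed to 141 and 158 against 386, 914 and 132. Cdh5 rose as well (1.81 ± 0.30). The part of RNA from other cells in the genes above was not tested. Without the cells over 30000 UMIs, a limit set after the data were seen, 214 genes passed in place of 241.

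The response was then compared with that of other ECs in the same 5 libraries, by a test of the difference between both responses. It differed for 39 of 4740 genes (0.823%) in the upward and 21 (0.443%) in the downward direction, 60 (1.27%) in all, and within spontaneous tumours for 1 gene, Ly6a. The count is small and depends on the libraries: it was 35 without spontaneous PBS 1, 13 without spontaneous PBS 2 and 18 without implanted cGAMP 1.

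The 8 named genes with a more positive response in sinus-like cells were at 60.0 CPM or less there after PBS. Ctla2a, a cysteine protease inhibitor, went from 50.02 and 13.7 to 798, 1433 and 1539 CPM in sinus-like cells and from 2053 and 2090.0 to 2731, 3179.6 and 3196 in other ECs (difference of responses 4.47 ± 0.36, limma adjusted p = 0.000107). Ly6a differed by 3.66 ± 0.57, with other ECs rising from 762 and 643 to 3253, 4750.1 and 4605 CPM. The basement membrane chain Col4a2 went from 60.0 and 8.66 to 324, 461 and 163 CPM in sinus-like cells while other ECs stayed between 1028 and 1775 (3.48 ± 0.56). Nts (4.89 ± 0.61), Adm (3.16 ± 0.54), the peptide transporter Slc15a3 (3.08 ± 0.60), Plpp3 (3.06 ± 0.49) and Emp1 (3.04 ± 0.50) completed the 8 named genes. Of 15 interferon genes 2 responded more, Rsad2 (2.26 ± 0.45) and Isg15 (1.98 ± 0.26), and none less. The chemokine Ccl5 responded more too (1.91 ± 0.42, limma adjusted p = 0.0486), with its level in spontaneous cGAMP 1 resting on few cells.

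The 8 named genes with a less positive response were at 127 CPM or more in sinus-like cells after PBS. Cxcl10 rose by 2.76 in sinus-like cells and by 5.56 in other ECs, which went from 7.05 and 4.78 to 456, 987 and 893 CPM (-2.80 ± 0.29, limma adjusted p = 0.000846). The Cxcl10 levels of sinus-like cells after PBS rest on few cells. Cd74 was at 476 and 449 CPM after PBS and 792, 760.0 and 1460.2 after cGAMP in sinus-like cells, against 8.90 and 13.5, then 200.4, 619.8 and 439 in other ECs (-3.18 ± 0.44, limma adjusted p = 0.00567). Of 10 antigen presentation genes 6 responded less and none more (median -1.45, against 0.01 over all genes), B2m (-1.50 ± 0.17), the class I gene H2-K1 (-1.31 ± 0.19) and the peptide transporter Tap1 (-1.71 ± 0.37) among them. The remaining named genes were Marco (-5.01 ± 0.91), Bmp2 (-4.22 ± 0.87), Pf4 (-3.60 ± 0.79), the ubiquitin-like Ubd (-2.82 ± 0.49), the serpin Serpina3f (-2.68 ± 0.49) and Ptn (-2.46 ± 0.43). For Bmp2 the difference after cGAMP was -1.85 in sinus-like cells, where it did not pass and the groups overlapped, and 2.37 in other ECs. For Glycam1 the responses were -2.31 and -3.58 and their difference did not pass (1.26 ± 1.08, limma adjusted p = 0.704). Of 13 NF-κB targets, 7 complement genes and 4 floor genes 0 passed in limma, where 571 of all genes had an unadjusted p under 0.05.

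**Figure D5:**
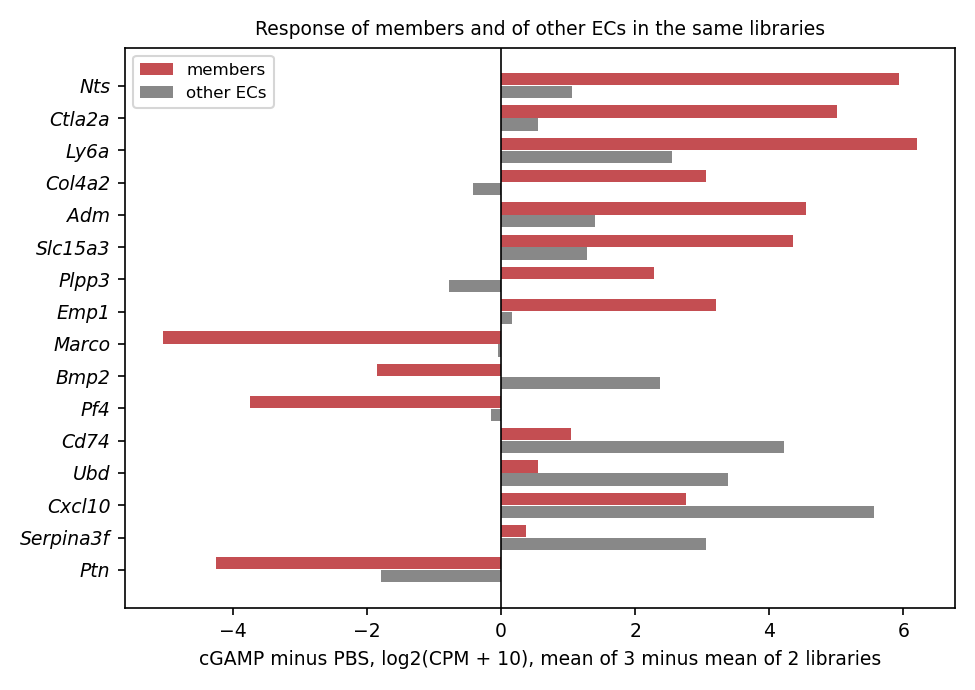
Response to cGAMP (mean of 3 cGAMP libraries minus mean of 2 PBS libraries, log2(CPM + 10)) in sinus-like cells (members) and other ECs for the 16 genes whose responses differed most. Cxcl10 changed by 2.76 against 5.56 and Bmp2 by -1.85, which did not pass, against 2.37.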

How the data were processed

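Single-cell RNA was measured in 8 libraries of sorted tumour ECs, with 7863535 to 16506086 UMIs per library. According to the submitters' processing notes and methods, the authors counted reads with Cell Ranger 3.0.0 on mm10, removed cells with few genes or a high mitochondrial share and rarely detected genes, and normalised with Seurat 3.1.1. The deposited values are natural log values of 1 plus UMIs per 10000, and 100% of them gave whole UMIs within 0.01. From these a library level was computed as the mean CPM over the cells of a set. Levels were compared in limma 3.58.1 (R 4.3.3) on log2(CPM + 10), for genes at 50 CPM or more in at least 2 levels and libraries with at least 5 sinus-like cells, with Benjamini-Hochberg adjustment over all genes tested and a threshold of 0.05. The low-value filter can keep a gene through the set in which it is high. Other ECs were cells with at least 3 of Pecam1, Cdh5, Cldn5, Egfl7, Esam and Eng, the lymphatic cells included. The 12 genes of the rule were not tested.

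Named genes were those with the largest differences among genes past the threshold, the same way in every library (or without overlap between groups) and at 100 CPM or more: 15 higher and 10 lower against other ECs, 10 and 10 against lymphatic cells, and 8 and 8 for each cGAMP comparison, of which 1 gene is not reported here. Further genes were picked after their values were seen. The cells and the gene lists were chosen with earlier results of these data known. The fit was tested on simulated data. Scrublet in scanpy 1.11.5 marked 13 of 8204 cells, too few to rely on, so no doublets were removed. Python 3.11.15 was used for the rest. No count model was used because the deposited unit is a log value.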

Additional observations from a re-analysis of the deposited data

Results flagged for a closer look

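The response to cGAMP differed between sinus-like cells and other ECs for 60 genes by the test of the difference itself. On the log2(CPM + 10) scale the response of sinus-like cells minus that of other ECs was 4.89 for Nts, 4.47 for Ctla2a, 3.66 for Ly6a, 3.48 for Col4a2, 3.16 for Adm, 3.08 for Slc15a3, 3.06 for Plpp3 and 3.04 for Emp1. It was -5.01 for Marco, -4.22 for Bmp2, -3.60 for Pf4, -3.18 for Cd74, -2.82 for Ubd, -2.80 for Cxcl10, -2.68 for Serpina3f and -2.46 for Ptn. Both PBS libraries were from spontaneous tumours and 2 of the 3 cGAMP libraries from implanted tumours, so treatment and tumour model cannot be told apart. Within spontaneous tumours the named differences had the same sign, and Ly6a (5.20) passed.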

How the results depend on the processing

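The number of sinus-like cells went from 70 to 109 when 2 of the 6 genes sufficed and to 39 when cells were drawn to 2000 UMIs. Genes that differed from other ECs went from 1439 to 375 (81 higher and 294 lower) at 2000 UMIs and to 786 with libraries of at least 10 sinus-like cells, and ranged from 1121 to 1436 when each library was left out. With no filter they were 1946, of which 523 were higher and 1423 lower. Against the lymphatic cells 870 became 440 with no filter, 568 with at least 10 cells per library and 641 to 891 when each library was left out. The 241 genes that changed with cGAMP became 156 with at least 4 of the 6 genes, 22 in spontaneous tumours alone, 397 (253 rose and 144 fell) with Prox1 required and 0 at 2000 UMIs, and ranged from 140 without implanted cGAMP 2 to 288, with 149 without spontaneous PBS 2. The 60 genes whose responses differed became 34 and 37 with a pseudocount of 1 and 50 CPM, 0 with no filter (1339 at an unadjusted p under 0.05 in limma), 30 with UMIs summed, 14 with at least 10 cells per library, 35 without cells over 30000 UMIs and 1 in spontaneous tumours alone, and ranged from 13 to 74 when each library was left out. Stab1 against other ECs changed from 0.48 to -1.90 at 2000 UMIs, the only sign change among the alternatives run for the named genes. The causes were not tested. Median-of-ratios scaling moved the median cGAMP difference over all genes from -0.08 to 0.08. The alternatives on spontaneous tumours, on cells over 30000 UMIs, on Prox1 for all but the cell count and other ECs, and on 2000 UMIs for cGAMP were chosen after seeing the data. With the replicate number as a block (replicate block) 234 genes changed with cGAMP, 219 of them shared. Deviations of same-numbered libraries had correlations of -0.30 to 0.099 over 12 pairs, so the numbers were not taken to pair libraries. With 2 libraries per group their deviations mirror each other, so each correlation occurs in 2 of the pairs and the 12 are not independent. Leaving out the 13 cells marked by Scrublet took away 0 sinus-like cells, and the comparison with other ECs was not refitted without them. With 4 to 22 cells per library, small differences were not detectable.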
